A study of Mus musculus with 9 samples.

Results

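The 9 genes described here belong to a group linked to aldosterone and the mineralocorticoid receptor (MR) in the kidney. They include the serum- and glucocorticoid-regulated kinases (SGK) Sgk1, Sgk2 and Sgk3 and the epithelial sodium channel (ENaC) subunits Scnn1a, Scnn1b and Scnn1g. The others are the ubiquitin ligase Nedd4l, the sodium pump subunit Atp1b1 and the sodium-chloride cotransporter Slc12a3. All 9 were named from 21951 protein-coding genes under the heading of classic renal MR targets. Whether MR induces each of them was not examined here. The rule uses no measured value, but the group was drawn up with earlier results of these data known. A binding site was counted for a gene when the summit of a ChIP-nexus peak lay between the annotated ends of the gene or within 20 kb of either end. ChIP-nexus is chromatin immunoprecipitation followed by exonuclease digestion, so that reads end close to the bound protein. All positions are in mm10 (GRCm38).

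Binding of MR and of the glucocorticoid receptor (GR) was measured in Neuro2A (N2A) cells, a mouse neuroblastoma line, that were transiently transfected with eGFP-GR and mCherry-MR together. GR was precipitated through GFP and MR through RFP, so both lists of a treatment come from cells that carried both tagged receptors. Cells received vehicle, 100 nM corticosterone (CORT) for 20 min, or the same CORT pulse followed by washing and 40 min without steroid (washout). The deposited description names mouse receptors, whereas the study's methods name rat cDNAs. Expression was driven from plasmids, so receptor levels are those of transfected cells. N2A cells are of neuronal origin, not kidney epithelium, and peak lists carry no expression values with which cell identity or the activity of these genes could be checked.

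Each receptor and treatment gave 1 list of peaks, called on 3 combined replicates against input chromatin. These lists therefore give no spread between replicates, and no difference between treatments or receptors could be tested. The study also called peaks in individual replicates after CORT. It reports far fewer sites that recurred between replicates than the combined lists hold, above all for GR. Which of the peaks described below recurred could not be checked from the combined lists. The GR lists held 64 (vehicle), 10602 (CORT) and 246 (washout) peaks, and the MR lists 73, 14638 and 4885. Depth cannot be computed from the lists, which give no counts of reads. A gene without a listed peak is one where no peak passed the threshold of the caller at that depth. Peak strength is given as the −log10 p of the peak against input. It grows with depth, so it is compared through ranks within a list and is not an amount of binding.

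In the distal nephron and collecting duct, MR bound by aldosterone raises sodium reabsorption. SGK1 phosphorylates NEDD4-2, the product of Nedd4l, and so keeps this ligase from removing ENaC from the apical membrane. The sodium pump then moves the sodium out across the basolateral membrane. MR and GR both bind CORT and both recognise the glucocorticoid response element (GRE), an inverted repeat of the letters AGAACA with a 3-base spacer. GR is widely expressed, and Sgk1 was first described as a gene induced by serum and glucocorticoids.

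The sequences below are those on which the description of the individual sites turns. They are the closest GRE letters at the 8 of 20 sites where the letters differed from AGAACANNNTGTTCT at no more than 3 of its 12 fixed positions, followed by the intronic Sgk1 site, which differed at 4. Each is the plus strand of mm10 (the plus strand is also the coding strand of these 5 genes), 5′ to 3′, with 13 bases on either side, and the capitals mark the GRE letters. A GRE reads the same on both strands, so 1 search covers both.
Sgk1, downstream site, chr10:22004988-22005028: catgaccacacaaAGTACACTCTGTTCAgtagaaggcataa
Sgk3, intronic site of both receptors, chr1:9859535-9859575: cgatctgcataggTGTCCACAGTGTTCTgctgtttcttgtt
Sgk3, intronic MR site, chr1:9851590-9851630: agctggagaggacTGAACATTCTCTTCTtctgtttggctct
Scnn1a, upstream site, chr6:125302705-125302745: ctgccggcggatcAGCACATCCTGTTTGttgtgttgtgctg
Scnn1a, first intronic MR site, chr6:125325555-125325595: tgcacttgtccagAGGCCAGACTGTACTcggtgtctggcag
Scnn1a, last intronic site, chr6:125330716-125330756: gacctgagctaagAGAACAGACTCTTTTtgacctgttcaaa
Scnn1b, last intronic site, chr7:121907098-121907138: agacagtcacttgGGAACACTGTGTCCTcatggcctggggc
Slc12a3, intronic site, chr8:94343576-94343616: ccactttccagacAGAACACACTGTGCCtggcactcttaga
Sgk1, intronic site, chr10:21952678-21952718: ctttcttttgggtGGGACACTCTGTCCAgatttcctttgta

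After CORT, 6 of the 9 genes had at least 1 peak of GR and the same 6 had at least 1 peak of MR: Sgk1, Sgk3, Scnn1a, Scnn1b, Scnn1g and Slc12a3. By the same rule 26.3% of all protein-coding genes had a GR peak after CORT and 30.2% had an MR peak. Sgk2, Nedd4l and Atp1b1 had none in any list. With only peaks of −log10 q of at least 5, 4 of the 9 genes kept a GR CORT peak and 5 an MR CORT peak. Scnn1a and Scnn1g then had no GR peak and Scnn1g no MR peak, so the genes were no longer the same. At that threshold 3431 (GR) and 4605 (MR) of the 21951 protein-coding genes had a peak after CORT. After vehicle no peak of either receptor was listed at any of the 9 genes, against 0.109% of protein-coding genes for GR and 0.109% for MR. After washout GR had no peak at any of them, against 1.02% of genes, whereas MR had a peak at 4 of the 9 (Sgk1, Sgk3, Scnn1a and Scnn1b), against 14.2% of genes.

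**Figure D1:**
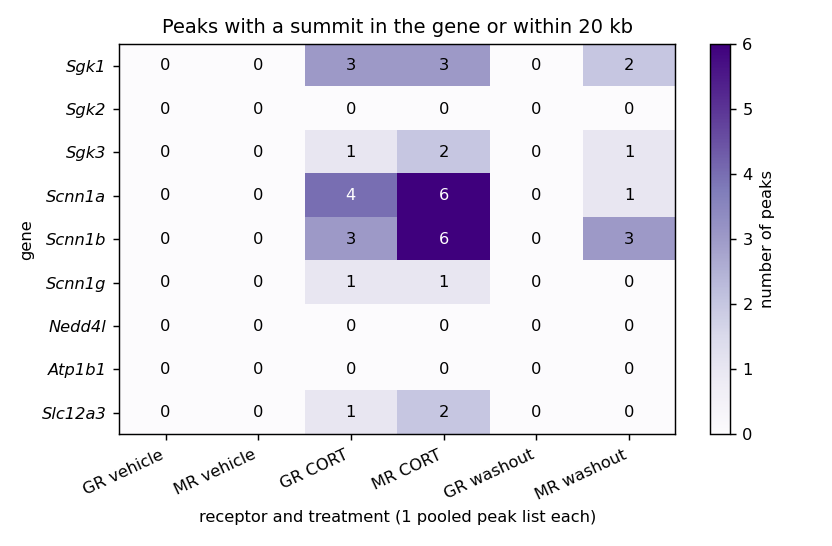
Number of peaks at each of the 9 genes (rows) in each of the 6 peak lists (columns), counted when the summit lay in the gene or within 20 kb. The columns for vehicle and for GR after washout hold only zeros, the CORT columns hold 13 GR and 20 MR peaks, and the MR washout column holds 7.

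Long loci catch more peaks, so the genes were also read against loci of like length, counting the gene and 20 kb on each side. After CORT, 2 of the 3 loci of 100 kb or more (Sgk1, Sgk3 and Nedd4l) were bound by GR and 2 by MR, where 39.5% and 45.8% of such loci were. Among the 6 shorter loci 4 were bound by GR and 4 by MR, where 23.1% and 26.5% of such loci were. After washout 2 of the 3 long loci and 2 of the 6 short ones had an MR peak, against 27.1% and 11.2%. With 9 genes chosen by name these shares are a description and were not tested.

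**Figure D2:**
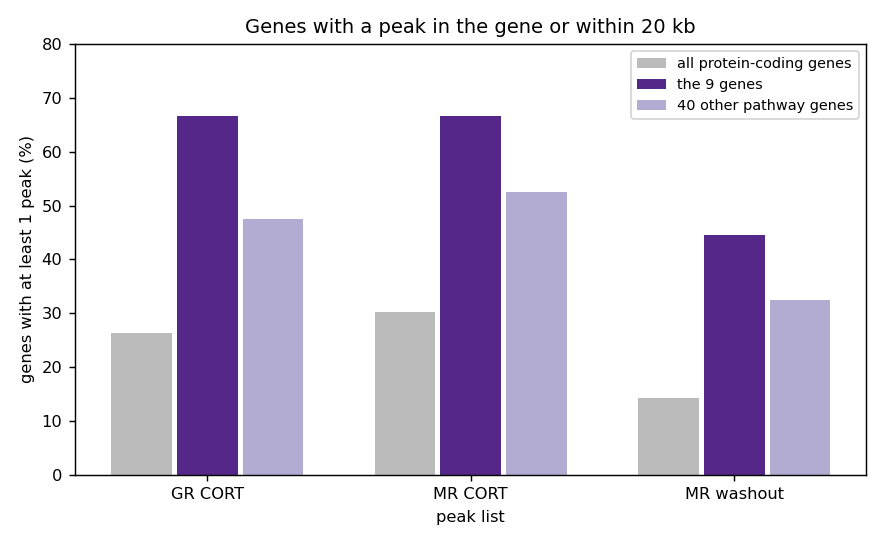
Percentage of genes with at least 1 peak in the gene or within 20 kb (vertical axis) in the GR CORT, MR CORT and MR washout lists, for all protein-coding genes (grey), the 9 genes described here (dark purple) and 40 other genes of the pathway (light purple). The dark bars stand for 6, 6 and 4 of 9 genes and lie above the grey bars at 26.3%, 30.2% and 14.2%.

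The 9 loci together span 1107.3 kb and held 1.17 GR peaks and 1.81 MR peaks per 100 kb after CORT. All protein-coding loci joined held 0.586 and 0.800 per 100 kb. For MR after washout the densities were 0.632 and 0.262 per 100 kb. Within the group the peaks were uneven: the 2 ENaC genes Scnn1a and Scnn1b held 12 of the 20 MR peaks and 7 of the 13 GR peaks after CORT. Scnn1a had the highest density of the 9 loci, with 6.22 GR and 9.33 MR peaks per 100 kb. All 4 GR peaks at Scnn1a had −log10 q below 5, from 3.78 to 4.79. The GR density there thus rests on peaks that this stricter threshold leaves out.

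Peaks that overlapped one another in any list were joined into 20 sites. After CORT, 10 sites carried a peak of both receptors, 8 carried a peak of MR alone and 2 a peak of GR alone. Of the 10 sites of both receptors, 5 also carried an MR peak after washout. These 5 lie in 4 genes: Sgk1, Sgk3, Scnn1a and, with 2 sites, Scnn1b. No MR washout peak at these genes stood at a site listed for 1 receptor only. The same split of sites was not made over the whole lists, so it is not read as a trait of these genes.

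**Figure D3:**
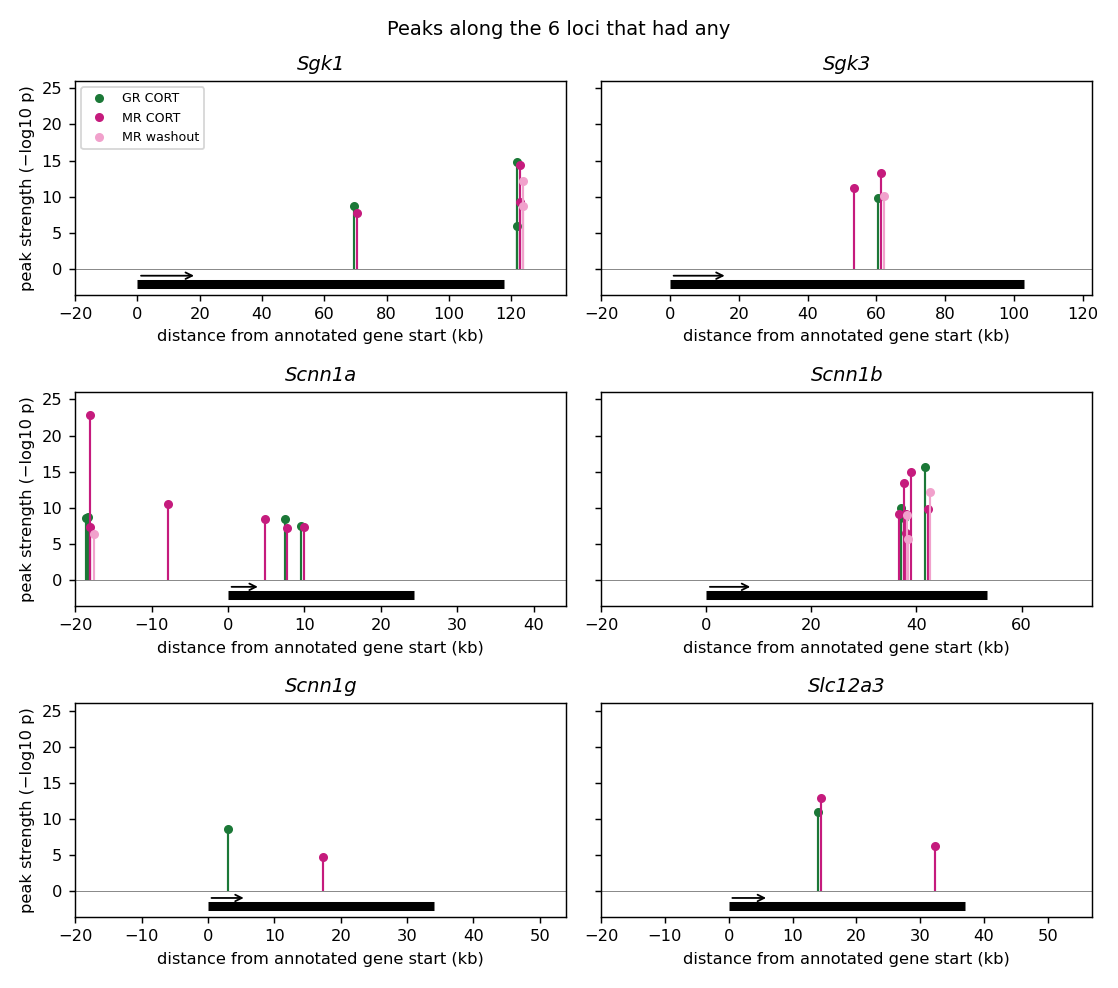
Peaks along the 6 loci that had any. The horizontal axis is the distance of the summit from the annotated gene start in kb, the vertical axis is −log10 p, the black bar is the gene with an arrow for its direction, and points of the lists are set slightly apart sideways so that they can be told from each other. The highest point is the MR CORT peak about 18 kb upstream of Scnn1a, and the MR washout points stand beside GR and MR CORT points at 4 of the 6 genes.

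Sgk1 encodes the kinase that is the best known early product of MR and GR action. The gene lies on the plus strand (chr10:21882184-21999903) and is annotated with 11 transcript starts. It carried 3 peaks of each receptor after CORT, then 2 of MR and none of GR once CORT had been washed out. Among protein-coding genes 6.36% had as many GR peaks or more after CORT, 8.85% as many MR peaks or more, and 5.01% as many MR peaks or more after washout. The study also measured Sgk1 mRNA by RT-qPCR. MR alone changed the genes it tested only slightly, and GR changed them more. By ChIP-qPCR it found very weak MR binding at its Sgk1 site, which it says may reflect epitope masking. Which of the sites described below was tested is not known here.

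The stronger Sgk1 site lay about 5 kb past the 3′ end of the gene and 8.3 to 8.5 kb past the nearest annotated transcript start. It spanned 345 bp and held a pair of peaks in each of the 3 lists. In the GR CORT list these had −log10 p of 6.00 (chr10:22004788-22004924) and 14.7 (chr10:22004982-22005098), the latter ranking 1140 of 10602. The second peak of each pair was the stronger one in all 3 lists. In the MR CORT list the values were 9.34 (chr10:22004819-22004880) and 14.4 (chr10:22004922-22005132), the latter ranking 2292 of 14638. In the MR washout list they were 8.71 (chr10:22004835-22004891) and 12.2 (chr10:22004937-22005095), the latter ranking 1230 of 4885. The stronger peak thus stood in the top 10.75% of the GR CORT list, the top 15.66% of the MR CORT list and the top 25.18% of the MR washout list.

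The stronger MR CORT peak at this site is shown whole because it held the closest GRE letters of the Sgk1 locus found under a peak. It is the plus strand of chr10:22004922-22005132, with the GRE letters in capitals.
Sgk1, downstream MR peak: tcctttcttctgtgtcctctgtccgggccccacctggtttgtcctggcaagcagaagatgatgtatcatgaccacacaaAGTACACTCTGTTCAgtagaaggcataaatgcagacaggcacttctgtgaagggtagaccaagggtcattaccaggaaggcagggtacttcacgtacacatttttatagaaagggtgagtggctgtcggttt
The GRE letters had 1 mismatch in each repeat. Their centre lay 25 bp before the GR CORT summit, 67 bp before the MR CORT summit and 30 bp past the MR washout summit. The MR summit after washout therefore stood 97 bp before that after CORT, with the GRE letters between them. The 211 bases of this peak had a GC content of 48.3%.

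The other Sgk1 site lay in an intron, 70.5 kb past the gene start and 24.2 kb past the nearest transcript start. CORT lists showed GR there (chr10:21952655-21952781, −log10 p 8.66, rank 5190) and MR (chr10:21952673-21952738, −log10 p 7.83, rank 8979), and the washout lists neither. GR stood near the middle of its list and MR below it. The value 8.66 was shared by 1167 peaks of the GR CORT list, where it is also the median, and 3 other GR peaks at these genes had it too.

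Sgk3 encodes a kinase of the same family that is recruited to endosomes by a lipid-binding PX domain. Its gene (chr1:9798107-9900845, plus strand) carried an intronic site of both receptors 61.4 kb past the gene start. The GR CORT peak (chr1:9859475-9859555) had −log10 p 9.84 and ranked 4418. The MR CORT peak (chr1:9859457-9859569) had 13.3 and ranked 3005. The MR washout peak (chr1:9859495-9859579) had 10.1 and ranked 2146, so this site stood above the middle of all 3 lists. The GRE letters printed above for it have 1 repeat, TGTTCT, intact and all 3 mismatches in the other. A further intronic MR peak after CORT (chr1:9851544-9851578, −log10 p 11.2, rank 4297) had no GR counterpart and no washout peak. Its GRE letters had 2 mismatches and began 25 bp past the end of the peak.

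Sgk2 encodes a kinase of the family found mainly in tissues such as liver, kidney and pancreas. It had no peak within 20 kb in any list. The nearest CORT summits lay 63.1 kb from the gene for GR and 63.0 kb for MR, and the nearest MR washout summit 63.1 kb away. The 3 SGK genes thus differed in listed binding: 3 GR and 3 MR peaks after CORT at Sgk1, 1 and 2 at Sgk3, and none at Sgk2.

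Scnn1a encodes the α subunit of ENaC, the subunit whose synthesis aldosterone raises in the collecting duct. With 6 MR peaks after CORT it was among the 2.50% of protein-coding genes with as many or more, and with 4 GR peaks among 3.69%. The peaks fell into a cluster about 18 kb upstream of the gene start (chr6:125320659-125344943, plus strand), a single MR peak in between, and intronic sites.

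The upstream cluster held the strongest peak at any of the 9 genes. This MR CORT peak (chr6:125302679-125302835) had −log10 p 22.9 and ranked 526 of 14638, in the top 3.59%. The GR CORT peak that overlapped it (chr6:125302635-125302817) had −log10 p 8.76 and ranked 4891 of 10602, in the top 46.13%. After washout the MR peak there (chr6:125302671-125302769) had −log10 p 6.42 and ranked 4285 of 4885. These ranks describe the peak within each list and do not measure a change between treatments, since the lists differ in length. The 3 summits lay within 8 bp of one another. They stood 6852 to 6860 bp from a transcript start of another protein-coding gene, nearer than to any start of Scnn1a. The peaks of this cluster therefore cannot be given to Scnn1a from position alone.

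The whole MR CORT peak is shown because it is the strongest at these genes. It is the plus strand of chr6:125302679-125302835, with the GRE letters in capitals.
Scnn1a, upstream MR peak: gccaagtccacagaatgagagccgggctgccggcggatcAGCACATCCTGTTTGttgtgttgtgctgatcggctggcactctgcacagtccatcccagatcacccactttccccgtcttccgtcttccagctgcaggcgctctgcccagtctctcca
The GRE letters had 1 mismatch in the first repeat and 2 in the second. Their centre lay 15 bp past the GR summit, 20 bp past the MR CORT summit and 12 bp past the MR washout summit. The GC content of the 157 bases was 59.9%. Just upstream stood a GR peak without an MR counterpart (chr6:125302421-125302535, −log10 p 8.66) and an MR peak without a GR counterpart (chr6:125302563-125302613, −log10 p 7.42), which lay 28 bp apart and did not overlap.

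The remaining Scnn1a peaks were listed after CORT only and were weaker than the upstream MR peak. An MR peak 7.9 kb upstream (chr6:125312793-125312840, −log10 p 10.6) lay inside the neighbouring gene Ltbr, which encodes the lymphotoxin β receptor. In the introns, an MR peak without a GR counterpart (chr6:125325572-125325605) had −log10 p 8.44. Further on, a GR peak of 8.51 (chr6:125328431-125328651) overlapped an MR peak of 7.23 (chr6:125328372-125328473), with summits 144 bp apart. This was the widest gap between GR and MR summits among the 9 genes. The last intronic site held a GR peak of 7.57 (chr6:125330636-125330744) and an MR peak of 7.42 (chr6:125330608-125330644), with summits 83 bp apart. Its GRE letters have the repeat AGAACA intact and lay 38 bp past the GR summit and 121 bp past the MR summit.

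Scnn1b encodes the β subunit of ENaC. It had 3 GR and 6 MR peaks after CORT and, with 3 MR peaks after washout, was among the 2.21% of protein-coding genes with as many or more in that list. All of them lay between 36.6 and 42.1 kb past the gene start (chr7:121865038-121918514, plus strand). Every one of these summits also lies within Cog7, a gene for a Golgi complex subunit on the opposite strand, so the peaks cannot be given to 1 of the 2 genes from position alone.

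The strongest GR peak at any of the 9 genes was the last of this stretch (chr7:121907046-121907221), with −log10 p 15.7 and rank 861 of 10602, in the top 8.12%. The MR CORT peak there (chr7:121907022-121907194) had −log10 p 9.82 and ranked 5907 of 14638, in the top 40.35%. After washout the MR peak (chr7:121907045-121907185) had −log10 p 12.3 and ranked 1141 of 4885, in the top 23.36%. These too are places within each list and not amounts of binding. The GRE letters had 1 mismatch in each repeat and lay 26 bp before the GR summit, 3 bp before the MR CORT summit and 9 bp before the MR washout summit.

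A second Scnn1b site of both receptors with MR after washout lay over an exon. It held a GR peak of −log10 p 9.99 (chr7:121902676-121902854), an MR CORT peak of 13.4 (chr7:121902704-121902868, rank 2537) and MR washout peaks of 9.01 (chr7:121902689-121902749) and 5.78 (chr7:121902866-121902922). The closest GRE letters there had 4 mismatches. Next to it an intronic site held a GR peak of 8.66 (chr7:121902983-121903229) and MR peaks of 6.54 (chr7:121902959-121903019) and 9.17 (chr7:121903079-121903161) after CORT. An MR peak without a GR counterpart (chr7:121903912-121903964) had −log10 p 14.9 and ranked 1919. It is the MR-only site with the highest value here, and 54.7% of its bases are marked as repeats in the reference. The first MR peak of the stretch (chr7:121901564-121901619) had −log10 p 9.17 and no GR counterpart.

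Scnn1g encodes the γ subunit of ENaC and neighbours Scnn1b. It had 1 GR peak after CORT over an exon 3.5 kb past the gene start (chr7:121737897-121738013, −log10 p 8.66). Its 1 MR peak after CORT was intronic, 17.3 kb past the gene start (chr7:121751692-121751736), with −log10 p 4.76 and rank 14609 of 14638. That is among the weakest peaks of the list. The GR and MR peaks did not overlap, the GRE letters at both had 5 mismatches, and the nearest MR washout summit was 134.3 kb from the gene. Of the 3 ENaC genes, Scnn1a and Scnn1b had sites of both receptors and Scnn1g had none.

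Slc12a3 encodes the thiazide-sensitive cotransporter of the distal convoluted tubule. An intronic site 14.4 kb past the gene start (chr8:94329201-94366214, plus strand), 2.2 kb before a downstream transcript start, was bound after CORT by GR (chr8:94343532-94343635, −log10 p 11.0, rank 3130) and by MR (chr8:94343574-94343611, −log10 p 12.96, rank 3077). Their summits lay 12 bp apart, with the centre of the GRE letters 4 bp before the GR summit and 8 bp past the MR summit. These letters have the repeat AGAACA intact and both mismatches in the other repeat. A second MR peak 32.3 kb past the gene start (chr8:94361525-94361558) had −log10 p 6.28 and ranked 12765. Neither receptor had a peak at the gene after washout, where the nearest MR summit lay 26.6 kb away.

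Nedd4l encodes the ligase that SGK1 phosphorylates, and Atp1b1 the β1 subunit of the sodium pump. Neither had a peak in any list. The nearest CORT summits lay 302.0 kb from Nedd4l for GR and 281.2 kb for MR, although this locus, at 370.1 kb, is the longest of the 9. For Atp1b1, on the minus strand of chromosome 1, they lay 194.1 and 175.2 kb away. The locus of Atp1b1, at 61.2 kb, is the shortest of the 9, so the 3 genes without peaks (Sgk2, Nedd4l and Atp1b1) include both ends of the range of length.

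Within their lists the peaks at these genes were spread around the middle. For the 13 GR CORT peaks the median −log10 p was 8.66, equal to that of the whole list, and ranged from 6.00 to 15.7. The 20 MR CORT peaks had a median of 9.26 against 9.17 for the list and ranged from 4.76 to 22.9. The 7 MR washout peaks had a median of 9.01 against 9.57 and ranged from 5.78 to 12.3. In each CORT list 1 of these peaks stood among the strongest 10%, the last Scnn1b site for GR and the upstream Scnn1a site for MR, and none did in the MR washout list. They made up 0.123% of the GR CORT list, 0.137% of the MR CORT list and 0.143% of the MR washout list.

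**Figure D4:**
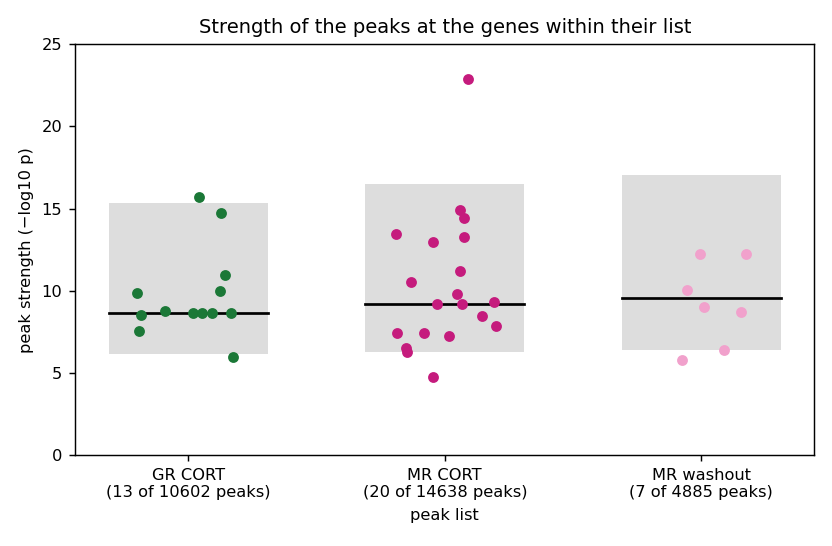
Strength of the peaks at the 9 genes (points, −log10 p on the vertical axis) in the 3 lists that had any, over the list's 10th to 90th percentile (grey bar) and median (black line). Points are spread sideways for visibility. The points lie on both sides of the medians of 8.66, 9.17 and 9.57, and the MR CORT peak at 22.9 is the highest.

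None of the peaks lay close to a transcript start of its own gene. The nearest summit was 2215 bp from a start of its gene for GR after CORT, 2227 bp for MR after CORT and 3500 bp for MR after washout. Over all peaks 12.3%, 9.98% and 9.40% of the 3 lists had a summit within 1 kb of an annotated transcript start of any protein-coding gene. Counted in the same way, against the starts of all protein-coding genes, it was 0 of 13, 1 of 20 and 0 of 7 peaks here, for which the 95% Wilson intervals reach 22.8%, 23.6% and 35.4% and include the shares of the lists. The 1 peak is the MR peak inside Ltbr, 457 bp from a start annotated to Ltbr. Intervals here cover counting error only, and peaks of 1 site are not independent. Of the 13 GR CORT peaks 7 were intronic, 2 exonic, 2 upstream and 2 downstream, and of the 20 MR CORT peaks 14, 1, 3 and 2.

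An overlap of 1 bp or more with MR after CORT was found for 11 of the 13 GR CORT peaks (84.6%, 95% Wilson interval 57.8 to 95.7%), against 61.0% of the whole GR list. Of the 20 MR CORT peaks, 12 overlapped a GR CORT peak (60.0%, 38.7 to 78.1%), against 47.6% of the whole MR list. The first interval includes the share of its list, and so does the second. The summits of the 11 overlapping pairs lay a median of 30 bp apart, with a range of 5 to 144 bp, against a median of 26 bp over all 6471 GR peaks with an overlapping MR peak.

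After washout, 6 of the 20 MR CORT peaks still overlapped an MR peak (30.0%, 95% Wilson interval 14.5 to 51.9%), against 24.6% over the whole list. For GR it was 0 of 13 (interval up to 22.8%), against 2.13%. Thus MR binding was listed after washout at these genes and GR binding was not. At the share found over the whole GR list, 13 peaks are too few to show retention of GR. The 7 MR washout peaks all overlapped an MR CORT peak (interval 64.6 to 100%), against 75.7% over the whole list. Of the 13 GR CORT peaks, 6 overlapped an MR washout peak (46.2%, 23.2 to 70.9%), against 28.2%.

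GRE letters with at most 3 mismatches lay within 100 bp of the summit at 6 of the 13 GR CORT peaks (46.2%, 95% Wilson interval 23.2 to 70.9%) and 7 of the 20 MR CORT peaks (35.0%, 18.1 to 56.7%). Over all peaks of the lists the shares were 37.7% and 39.9%. In windows of the same width 1 kb to each side of those summits the shares were 14.6% and 15.2%. With at most 2 mismatches the letters stood at 4 of 13 GR peaks (30.8%, 12.7 to 57.6%) and 4 of 20 MR peaks (20.0%, 8.07 to 41.6%), against 10.5% and 11.5% over the lists. The first of these intervals leaves out the share of its list, and the second does not. With at most 4 mismatches they stood at 10 of 13 and 14 of 20, against 79.0% and 82.1%.

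**Figure D5:**
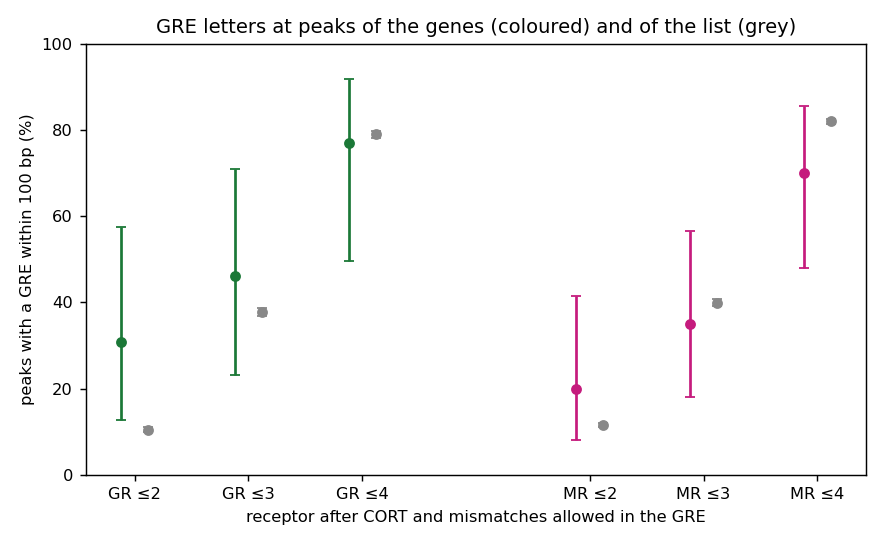
Percentage of CORT peaks with GRE letters within 100 bp of the summit (vertical axis), by receptor and by the mismatches allowed (horizontal axis), for peaks at the 9 genes (green for GR, pink for MR) and all peaks of the list (grey). Bars are 95% Wilson intervals for counting error. The coloured bars include the grey points except for GR with at most 2 mismatches, 30.8% against 10.5%.

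By kind of site, letters with at most 3 mismatches were found at 6 of the 10 sites of both receptors and at 2 of the 8 MR-only sites. They stood at 4 of the 5 sites with MR after washout, the exception being the Scnn1b exon site. Each site was searched around every summit it held, so sites with more peaks had more sequence searched. The last intronic Scnn1a site, for example, counted only through its GR summit. The kinds of site therefore cannot be compared by these counts, and the same split was not made over the whole lists. The AP-1 letters TGANTCA, which hold neither GRE repeat and read the same on both strands, lay within 100 bp of 2 of 13 GR and 2 of 20 MR CORT summits. Over the lists 11.2% and 10.1% of peaks had them. Both pairs of peaks were at sites of both receptors, the wide intronic site of Scnn1a and the intronic site beside the Scnn1b exon site.

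Most GRE letters in these loci had no peak. The 9 loci held 120 stretches with at most 2 mismatches, of which 4 lay under a CORT peak, 1 each in Sgk1, Scnn1a, Scnn1b and Slc12a3. Of the 9 stretches with at most 1 mismatch none did. Nedd4l held 35 stretches, Sgk2 10 and Atp1b1 7 with at most 2 mismatches and no peak, while Scnn1a, with the most peaks after CORT, held 5.

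Border pairs, the paired exonuclease stop positions called separately from the peaks, were few at these genes. At the downstream Sgk1 site MR had a pair of 66 bp after CORT (chr10:22005028-22005093, border p-value 0.000971) and another of 70 bp after washout (chr10:22005099-22005168, p-value 0.000554). At the upstream Scnn1a site MR had a pair of 30 bp after washout (chr6:125302740-125302769, p-value 0.00141). These p-values are those deposited with the pairs. None of these pairs covered the GRE letters printed above for its site. The Sgk1 pair after washout overlapped the MR CORT peak but no MR washout peak. No GR pair was found at the 9 genes in the files used here. Their GR CORT list holds 139 pairs, against 3285 for MR. The study reports the same number for MR but far more for GR, so this GR list lacks most of the study's pairs. Nothing is therefore read from the lack of GR pairs after CORT. Input chromatin had 5 pairs at the 9 genes, and none of them overlapped a peak.

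The genes whose 6 values were most like those of Sgk1 were Fa2h, Setd4, Cbr1, Deptor and Scnn1b. The values were the strongest −log10 p in each of the 6 lists, on the scale log2(1 + value) with 0 for no peak, and likeness was the Euclidean distance. The distances were 0.035 for Fa2h, 0.051 for both Setd4 and Cbr1, which are neighbours that share their peaks, 0.085 for Deptor and 0.096 for Scnn1b. All 5 had no peak after vehicle or in the GR washout list. This pattern is common: 2387 protein-coding genes, or 10.9%, had peaks in the same 3 lists as Sgk1.

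The wider pathway was read from 40 further genes, among them other sodium pump subunits, cotransporters, the WNK and SPAK kinases, the kinases that activate SGK, its substrates and aldosterone-induced regulators of ENaC. GR was listed after CORT at 19 of the 40 and MR at 21, and MR after washout at 13. None had a peak after vehicle or a GR peak after washout. These are 47.5%, 52.5% and 32.5%, beside the 26.3%, 30.2% and 14.2% of all protein-coding genes given above. The 40 genes were not split by the length of the locus, although long loci catch more peaks, and these shares were not tested.

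By the strongest GR peak after CORT the first 5 of these genes were Aqp2, Per1, Foxo3, Mapkap1 and Pdpk1. Aqp2, the vasopressin-regulated water channel, had −log10 p 21.8 and rank 285, at 20.5 kb past its gene start and beyond its 3′ end. Per1, a clock gene induced by aldosterone and glucocorticoids, had 17.8 in an intron 4.2 kb past its gene start. Foxo3, a transcription factor that SGK phosphorylates, had 17.2. Mapkap1, which encodes the mTORC2 subunit SIN1 that docks SGK1, had 16.5 as the strongest of 11 GR peaks. Pdpk1, the kinase that phosphorylates the SGK activation loop, had 14.2.

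By the strongest MR peak the first 5 were Mapkap1, Pdpk1, Aqp2, Wnk4 and Mtor. Mapkap1 had −log10 p 31.5 and rank 147, 223.1 kb past its gene start and beyond its 3′ end, above any MR peak at the 9 genes. Pdpk1 and Aqp2 both had 19.6, and Mtor, the kinase of mTORC2, had 17.8. Wnk4, a kinase that regulates SLC12A3, had 19.3 with the summit 14 bp before a transcript start. Of these 5 genes Mapkap1, Pdpk1, Aqp2 and Mtor had an MR washout peak that overlapped this strongest peak, and Wnk4 had no peak after washout. Because these 5 genes were picked from 40 by this value, nothing is read from their standing above the strongest MR peak at Sgk1, at 14.4. The 5 genes include Mapkap1, Mtor and Pdpk1, whose products act upstream of SGK1. The other mTORC2 subunits among the pathway genes were not among the 5. Rictor had 5.31 as its strongest MR peak after CORT, at rank 13751, and Mlst8 had no peak in any list.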

How the data were processed

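ChIP-nexus libraries were prepared in triplicate for each receptor and treatment. According to the study's methods and processing notes, the authors trimmed reads by quality, aligned them to mm10 with Bowtie2, removed duplicates by random barcode, combined the 3 replicates and called peaks with MACS2 2.1.1.20160309 against input at a false discovery rate of 0.05. The deposited peak values are a score (the whole part of 10 times −log10 q), the −log10 p, the −log10 q (in the column headed fold enrichment) and the offset of the summit. The authors called border pairs with MACE 1.2, and the deposited p-value of a pair is theirs.

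Starts were made 1-based. Genes were those of GENCODE M21, and sequence was read from GRCm38 (RefSeq). A summit was assigned to every gene that contained it or lay within 20 kb, ranks were taken on −log10 p within a list, peaks overlapped from 1 bp, and shares have 95% Wilson intervals. No test was made, because each condition is 1 combined list and the lists hold no read counts. Scripts were tested on simulated peaks. All 9 genes were named. Of the pathway list the 5 genes with the strongest peak per receptor after CORT were named, and for Sgk1 the 5 genes with the nearest values, leaving out genes with the same peaks as Sgk1. The genes, lists and comparisons were chosen with earlier results of these data known. Alternatives changed the distance to a gene (5 or 50 kb), the peak threshold (−log10 q of at least 5), the overlap, the gene set and the GRE search. Python 3.11.15 with pandas 2.3.3, numpy 2.4.6, scipy 1.17.1, pysam 0.24.0 and matplotlib 3.10.9 was used.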

Additional observations from a re-analysis of the deposited data

How the results depend on the processing

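Of 87 alternative values, 61 stayed within the error or within 1.5 times the value given. With peaks of −log10 q of at least 5, the 9 genes kept 5 GR CORT, 12 MR CORT and 3 MR washout peaks, GR CORT peaks overlapping MR CORT numbered 5, MR CORT peaks overlapping MR washout 3, and pathway genes with a peak 11 (GR CORT) and 6 (MR washout). The same threshold left a peak at 4 (GR CORT), 5 (MR CORT) and 3 (MR washout) of the 9 genes. It left 3431 (GR CORT), 100 (GR washout) and 1876 (MR washout) protein-coding genes with a peak. At 5 kb the genes with a peak were 147 (GR washout) and 2065 (MR washout), and at 50 kb 388, 4856 and, for MR vehicle, 43. Over all annotated genes they were 38 and 49 (GR and MR vehicle), 9969 and 11658 (CORT), 358 and 5418 (washout). With summits within 50 bp as the overlap, 7 GR CORT peaks were shared with MR. GRE letters stood at 10 GR and 14 MR peaks with at most 4 mismatches, at 4 MR peaks with at most 2, and at 4 MR peaks within 50 bp. These moves follow from what was changed, a larger or smaller threshold, window or gene set.

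No paired analysis was possible because each condition is 1 combined list and the labels carry no replicate numbers. For the same reason leaving out a replicate was not possible. Depth decides which weak peaks were listed, and its part in the difference between CORT and washout was not tested. A peak near a gene need not act on it, and binding was not set against expression here.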
